A study of Mus musculus with 18 samples.

Results

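The whole brain total RNA arrays were 9 of the 18 samples of a mouse brain expression study, chosen by the start of their titles, and they were described on their own, with no comparison with the 9 arrays of immunoprecipitated RNA. All 9 samples came from mice of the strain label C57BL/6J X DBA/2J that carried a bacterial artificial chromosome. In it the orexin coding sequence had been replaced by flag-tagged PABP, made from a rat cDNA, and an IRES-eGFP reporter. The transgene was thus driven by the regulatory sequence of orexin, a gene of a small group of hypothalamic neurons, and no array came from a mouse without it. The recombined chromosome was injected into BXD-F2 pronuclei. The labels give ages of 11 and 14 weeks without assigning them to samples, give no sex, name no line, and do not say that each sample was its own animal, so the spread between arrays may in part be technical. Per the labels' protocols, mice were perfused with formaldehyde before the brains were homogenised, and 5 ng of whole brain RNA was used for amplification by the NuGEN WT-Ovation Pico kit and carried a biotin label. The labels' extraction text describes the immunoprecipitation, while for the whole brain RNA itself the isolation is not described there.

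Whole brain RNA is a mixture of the transcripts of neurons, astrocytes, oligodendrocytes, microglia, vessel cells, the choroid plexus and whatever membranes or neighbouring glands stay attached when the brain is taken out. Neurons of the forebrain and cerebellum are numerous, whereas the neurons that make monoamines or hypothalamic peptides are few, so their transcripts are diluted in such a mixture. In bulk RNA, fewer cells of a type and less RNA per cell cannot be told apart. Levels are given as the deposited intensity, a linear brightness scaled so that the trimmed mean of each array was close to 500, and as the signal percentile, the position of a probe set among the 45037 probe sets of its array that are no array control, with 0 the dimmest and 100 the brightest. The order of percentiles is an order of signals and not of molecules, because the signal of a probe set also depends on its sequence and its place in the transcript.

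The arrays resembled one another in several general measures but differed in the hybridization controls. The mean log2 of these controls was 13.29 on arrays 4 and 6 and 13.36 on array 7. On the others it was 13.49 to 13.78. Median intensity ran from 220.5 to 266.7, and between 24.2% and 29.5% of probe sets lay under 100 intensity units. The difference between 3' and 5' probe sets of Gapdh, a glycolytic enzyme used as a control of RNA length, was 1.33 to 1.78 on the log2 scale, and that of Actb, cytoplasmic actin, was -0.23 to 0.03. Between pairs of arrays, Pearson's r across all probe sets, which are not independent, was 0.922 to 0.954, with a median of 0.940 over 36 pairs, so that no pair stood out as the same library. Arrays 2, 5 and 8 had the lowest median intensities and the largest shares of dim probe sets, and Gh, growth hormone of the pituitary, was at 3406 and 8947 on arrays 4 and 8 against at most 379 on the other 7. Spreads, the levels of lists that these arrays moved and the components are given with and without arrays 4 and 8.

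The 30 genes with the brightest signals included genes of the cytoskeleton, energy supply, protein folding, secretion and the synapse. The highest was Malat1, a nuclear long noncoding RNA, with intensities of 29691, 38738 and 46893 as lowest, median and highest of the 9 arrays. Next came Snap25, a membrane fusion protein of synaptic vesicle release, at 30860.4, 36688 and 40579. The mitochondrially encoded ND5, a subunit of respiratory complex I, had a median of 30361, and Fth1, the heavy chain of the iron store ferritin, had a median of 29789. These 4 signals lay above those of nearly all other probe sets on every array.

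Cytoskeletal genes among the 30 were the tubulins Tuba1a, Tubb2a and Tuba4a, with medians of 28003, 23433 and 20756, and Actb, with 24920.4. Energy genes were Mdh1, a malate dehydrogenase, Cox6c of cytochrome oxidase, Atp5a1 and Atp5h of the ATP synthase, and Vdac1, the channel of the outer mitochondrial membrane, with medians between 18948 and 24301. Chaperones were Hspa8 (25125) and Hspa4 (21670.3), and ribosomal proteins were Rps9 (22724) and Rps29 (19618). Membrane and secretory genes were Atp1b1, the beta subunit of the sodium pump (25288), Gpm6a, a neuronal membrane glycoprotein (22528), Atp6ap2, a partner of the vacuolar proton pump (23350.2), Cpe, the carboxypeptidase that trims neuropeptides (21164), and Olfm1, a secreted olfactomedin (19856). Mbp, the myelin basic protein of oligodendrocytes, was the only one of the 30 that any of the glial lists held, with 16114, 21035 and 23899. The remaining genes were Hnrnpab and Prpf19 of RNA processing, Hmgn1 of chromatin, Ywhaz, a phosphoserine-binding adaptor, Pebp1, Ndrg4 and Ndfip1, an adaptor of ubiquitin ligases.

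Signals of the 30 genes varied little, with SDs of 0.10 to 0.31 on the log2 scale and median intensities between 18948 and 38738. In 28 of the 30 the lowest array was array 4 or array 6, which were also the arrays in which the brightest 1% of probe sets held the smallest shares of the summed signal, 16.04% and 16.16%, against up to 19.56% on array 5. The part of this array-wide difference in the single genes was not tested. Of the 30 probe sets, 14 end in _s_at or _x_at, which mark probes that can match several transcripts, 8 end in _a_at and 8 end in plain _at.

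Other probe sets of the same genes often gave far lower signals. Of the 30 genes, 8 had another probe set below the 50th percentile, and 2 had no other. Mdh1 had its dimmest probe set at percentile 12.3, Prpf19 at 10.6, Hspa4 at 19.7, Rps9 at 21.3, Cpe at 28.7 and Mbp at 36.0. Across all 9010 genes with at least 2 probe sets, the brightest and the dimmest lay a median of 26.1 percentile points apart, and in 1734 genes (19.2%) they lay over 50 points apart. The percentile of a gene given here, that of its brightest probe set, is therefore an upper reading. The mean over all probe sets lowered the median of all genes from 58.9 to 49.2, and it is given beside the level of several lists.

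**Figure D1:**
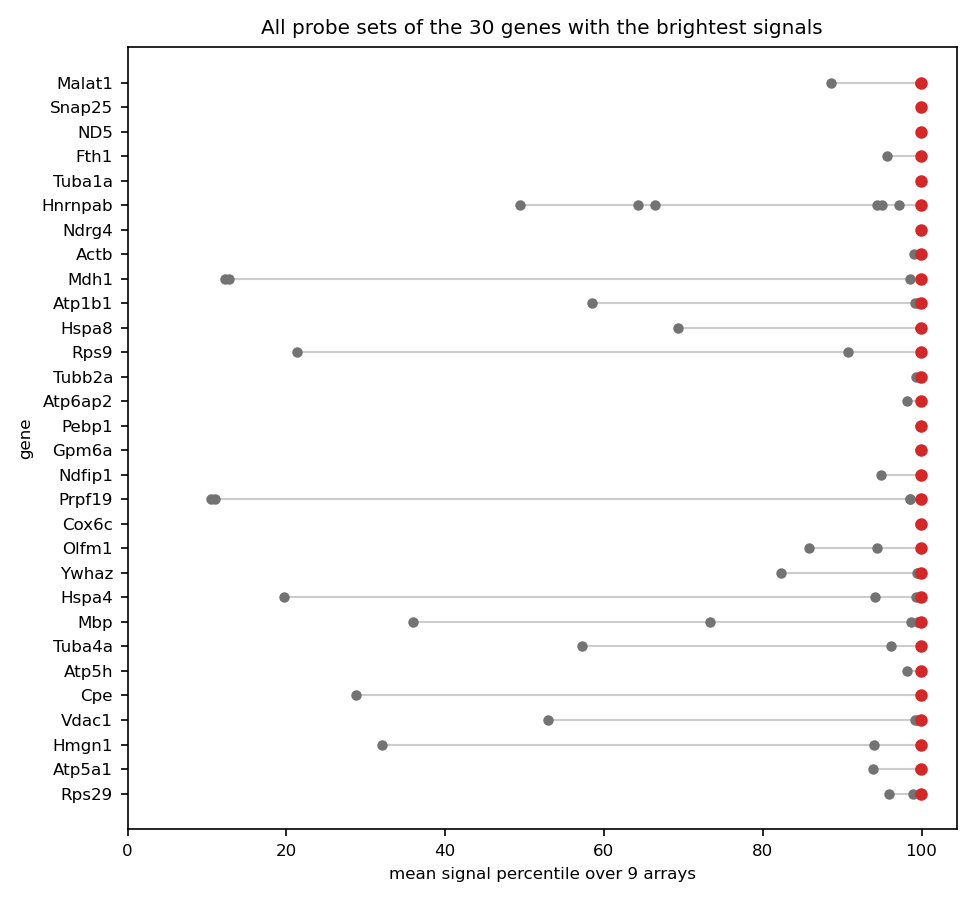
Mean signal percentile over the 9 whole brain arrays (horizontal axis, 0 dimmest to 100 brightest) of every probe set of the 30 genes with the brightest signals, one gene per line; red marks the brightest probe set and grey the others, joined by a line. All red points lie at the right edge, while Mdh1, Prpf19, Hspa4 and Rps9 also have a probe set between percentiles 10.6 and 21.3.

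Cell classes were read from 26 gene lists, chosen with earlier results of these data known, each summarised by the median signal percentile of its measured members on each array, as mean ± SD over the 9 arrays. For all 18193 genes this value was 58.9 ± 0.29, and 32.6% of genes lay at or above the 75th percentile. Of the 26 lists, 19 lay above the median gene. The pan-neuronal, cerebellar, forebrain, interneuron and striatal lists, the energy and ribosome lists, long noncoding RNAs, astrocytes and myelin were at the bright end, and pituitary hormones and genes of tissues outside the brain were at the dim end.

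**Figure D2:**
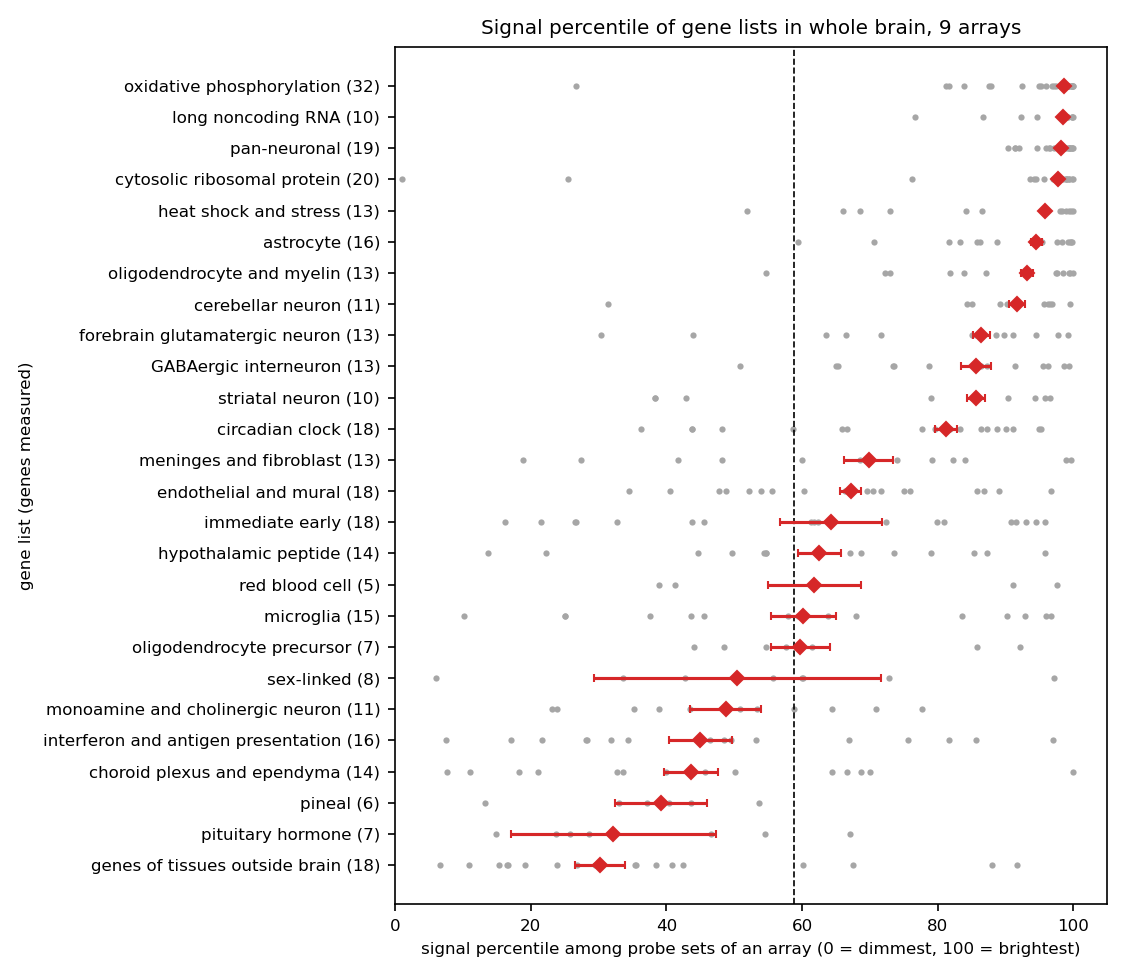
Signal percentile (horizontal axis) of the measured members of 26 gene lists in whole brain, ordered by the list median; grey points are genes (mean over 9 arrays), red diamonds the list median with bars of 1 SD over the 9 arrays, and the dashed line the median of all genes at 58.9. Bars are short at the bright end and longest for the sex-linked (SD 21.1) and pituitary hormone (SD 15.1) lists.

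General neuronal genes were bright. The list of pan-neuronal genes had a median percentile of 98.1 ± 0.31 (SD, n = 9 arrays), and all 19 measured members lay at or above the 75th percentile. Eno2, the neuronal enolase, ran at 12097, 13756 and 16180.1, and Nefl, the light neurofilament subunit, at 9484, 13804 and 16399.7. The least bright member was Nefh, the heavy neurofilament subunit, at 1227, 1449.6 and 1669 and percentile 90.4. Averaged over all probe sets of each gene the list stood at 96.2. Syp, a protein of the synaptic vesicle membrane, shows why both readings are given: one probe set had a median of 9685 and the other, with shared sequence, a median of 8.68.

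Lists of regional neurons were lower and spread over a wider range. Cerebellar genes stood at 91.7 ± 1.16, with 10 of 11 measured members at or above the 75th percentile, and the forebrain glutamatergic, GABAergic interneuron and striatal lists at 86.4 ± 1.21, 85.6 ± 2.24 and 85.6 ± 1.33. The last 3 values differed by less than the SD between arrays. Over all probe sets of each gene they were 74.4, 75.3 and 67.3 and the cerebellar list 86.5, where the median of all genes was 49.2.

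Among cerebellar genes, Zic1, a transcription factor of granule cells, was brightest at 8395, 9808 and 11981. Car8 and Calb1, which mark Purkinje cells, had medians of 3654 and 3326, and Pcp2, another Purkinje cell gene, had 1416 with an SD of 0.16. Barhl1, a homeobox gene of granule cells, was the exception at 65.0, 115 and 202, percentile 31.3. Pvalb was counted both in this list and in the interneuron list.

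In the forebrain list Camk2a, the alpha subunit of the calcium/calmodulin kinase of excitatory synapses, was brightest at 6822, 8567 and 11119.5. Bcl11b and Tbr1, transcription factors of deep cortical layers, had medians of 4453 and 2440.2. Slc17a7, the vesicular glutamate transporter of cortex and cerebellar granule cells, reached only 332, 402 and 653, percentile 66.5 on its single probe set, and Fezf2, which specifies subcerebral projection neurons, was at percentile 30.3.

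Both enzymes that make the inhibitory transmitter GABA gave bright signals. Gad1 ran at 5244, 6022 and 6632 (SD 0.10) and Gad2 at 7666, 8683 and 9536 (SD 0.09), which was 0.60 and 0.54 times the median SD of genes as bright. The dimmer probe set of Gad1 had an SD of 0.31. The vesicular GABA transporter Slc32a1 had a median of 2648 and the interneuron calcium buffer Pvalb one of 3254. Sst, the peptide somatostatin, was lowest on array 9 at 689.8, against 1154 as the median of the 9 arrays and no other array below 1053.

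In the striatal list the opioid precursor Penk (2992, 3414 and 4023), the phosphodiesterase Pde10a (2893 as median) and Tac1, the substance P precursor (2476), were bright. Drd2, the dopamine receptor of indirect pathway neurons, had a median of 153 at percentile 38.3, and Pdyn, the dynorphin precursor, one of 173 at percentile 38.3. Array 8 had the lowest signal of both Pde10a (2259) and Pdyn (49.4).

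Monoamine and cholinergic neuron genes were near the middle of the array. The list stood at 48.7 ± 5.28, below the median of all genes, and 1 of 11 measured members reached the 75th percentile. That member was Slc18a2, the vesicular monoamine transporter, at 543, 662 and 797. Dbh, which makes noradrenaline, had a median of 589 with an SD of 0.45. Its 3 probe sets had a mean percentile of 38.7, with the dimmest at 19.4. Th, the rate-limiting enzyme of catecholamine synthesis, was at 102, 186 and 299.7. The cholinergic genes Chat and Slc18a3 were lowest, at percentiles 23.9 and 23.2. 

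Hypothalamic peptide genes covered a broad range, with a list median of 62.6 ± 3.15 and 4 of 14 measured members at or above the 75th percentile. Crh, the corticotropin-releasing hormone, was the brightest at 2268, 2650.3 and 3724, followed by Sst, which is also a member of the interneuron list. Oxt, oxytocin, ran at 809, 1033 and 1239, and Pmch, the melanin-concentrating hormone of the lateral hypothalamus, at 580.1, 725 and 851. Cartpt, a feeding peptide, was even across arrays at 464, 567 and 618 (SD 0.13). Avp, Trh, Gal, Nts and Tac2, all neuropeptide precursors, had medians between 200.2 and 435. Ghrh, the releasing factor of growth hormone, and Hdc, the histamine-making enzyme, were at the dim end with percentiles of 13.8 and 22.3.

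Hcrt, the orexin precursor whose regulatory sequence drove the transgene, gave intensities of 365, 278, 261, 388, 156, 210.0, 248, 181 and 193 on arrays 1 to 9. This was percentile 49.7, close to the middle of all probe sets, with a mean of 8.02 ± 0.42 on the log2 scale. The highest array was 4 and the lowest array 5. The SD was 1.21 times that of genes as bright, so Hcrt varied about as much as its brightness class. Pabpc1, the mouse gene of the protein whose rat form was tagged, ran within a narrow range at 882, 1029.6 and 1088 (SD 0.10). Trib2, a pseudokinase, ran at 455, 661 and 1001.

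As a description without a test, the genes whose log2 signals followed Hcrt most closely over the 9 arrays were Cep152 (r = 0.951), Nr4a2 (0.906), Car9 (0.904), Enkur (0.904) and Ppp1r2-ps7 (0.896). All 5 were highest on array 1 or 4, and 4 of them had dim signals, with mean log2 values between 7.07 and 7.66. They were the top of 18193 genes ranked on 9 points. The part of the arrays' differences in overall signal in these correlations was not tested.

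Astrocyte genes were also bright. The list stood at 94.5 ± 0.82, with 14 of 16 members at or above the 75th percentile, and at 85.7 over all probe sets. Glul, glutamine synthetase, was brightest at 11401, 13614 and 16463, followed by Gja1, the gap junction protein connexin of astrocytes, at 10372, 11955 and 13839.5. Slc1a2, the main glutamate uptake carrier, had a median of 9708 and Clu, clusterin, one of 7843. Aldh1l1, a folate enzyme used to mark astrocytes, was least bright at 222, 334 and 459.

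Apoe, the lipid carrier secreted by astrocytes, was the only member of the astrocyte list with an SD above that of genes as bright by a factor of 2. Its single probe set gave 1511, 1957, 1637, 601, 1141, 852, 1099, 973 and 761 on arrays 1 to 9. Arrays 1, 2 and 3 were the highest and array 4 the lowest. The SD of 0.54 was 2.68 times that of its class. Among the 16 members judged for spread, 1 (6.25%) reached a factor of 2, against 3.23% of all genes judged.

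Oligodendrocyte and myelin genes stood at 93.2 ± 0.88, with 10 of 13 measured members at or above the 75th percentile. After Mbp the brightest were Mobp (8999, 10795 and 12921) and Cldn11, the tight junction protein of myelin (7731, 8392 and 9847). Mag and Mog, minor proteins of the myelin sheath, had medians of 847 and 549, and Mog was lowest on array 1 at 317. Sox10, the lineage transcription factor shared with precursors, was at percentile 54.7. The precursor list was lower at 59.8 ± 4.37, with Ptprz1 (median 1834) and Bcan (1073), both also made by astrocytes, as its only members at or above the 75th percentile. Pdgfra, the growth factor receptor that defines precursors, ran at 249, 359 and 481.

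Microglial genes stood near the median gene at 60.1 ± 4.79, and 5 of 15 measured members reached the 75th percentile. Over all probe sets of each gene the list stood at 56.9, where all genes stood at 49.2. Ctss, the lysosomal protease cathepsin S, was brightest at 2745, 3571 and 3773, with Laptm5 at a median of 2905 and the complement gene C1qb at 1892. The 5 probe sets of Laptm5 had a mean percentile of 47.4, with the dimmest at 15.8. Csf1r, the survival receptor of microglia, ran at 1046, 1606 and 2526 and was the only member at least 2 times as variable as genes of its brightness (2.01 times). That was 1 of 9 members bright enough to be judged (11.1%), against 3.23% of all genes judged. Trem2 was at percentile 10.2 and Itgam at 25.1, both below 30.2, the median of the genes of tissues outside the brain. On array 7 the list median was 49.3, against 58.4 to 65.9 on the other 8 arrays.

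Vessel genes had a list median of 67.2 ± 1.60, with 6 of 18 measured members at or above the 75th percentile. Rgs5, a pericyte gene, was brightest and even at 3009, 3495 and 3697 (SD 0.11), and Slco1c1, the thyroid hormone carrier of the blood-brain barrier, had a median of 1199. Cdh5, the adhesion protein of endothelial junctions, had one of 145 at percentile 34.6. Tek, the angiopoietin receptor, was lowest on array 1 at 133.

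The choroid plexus and ependyma list held a single gene of very bright signal. Its median was 43.6 ± 4.02 and 1 of 14 members reached the 75th percentile. That gene was Ttr, the thyroxine carrier made by the choroid plexus, at 14804, 18339 and 20510.4, SD 0.16. Sostdc1, a secreted inhibitor of the plexus, had a median of 479 and Kl, klotho, one of 466.3. Slc4a5, Foxj1, the regulator of motile cilia, and Tmem212 were at percentiles 7.71, 11.1 and 18.3.

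Genes of meninges and fibroblasts stood at 69.8 ± 3.58. Ptgds, prostaglandin D synthase (9786, 12794 and 16649.6), and Apod, apolipoprotein D (median 7056), led the list, but both are also made inside the brain. Among genes more particular to fibroblasts, Col1a2 ran at 637, 711 and 858 and Dcn, decorin, at 236, 356 and 422. Col3a1 was near the dim end on 8 arrays, at 31.5 to 76.8, and 219 on array 1. Over all probe sets of each gene the list stood at 55.3. The 5 measured genes of red blood cells stood at 61.8 ± 6.87, near the median gene on the brightest probe sets. Over all probe sets of each gene they also stood at 61.8, where all genes stood at 49.2. Hbb-b2, a beta globin, ran at 3116, 4657 and 13858, with another probe set at percentile 36.3, and Hba-a2, an alpha globin, at 1276, 1558 and 1840.1. Hba-a1, also an alpha globin, and Slc4a1, the anion exchanger of the red cell membrane, were dimmer, with medians of 180 and 177 at percentiles 38.9 and 41.3.

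Genes of ribosomes and respiration were bright with few exceptions. Cytosolic ribosomal protein genes stood at 97.7 ± 0.21, with 18 of 20 measured members at or above the 75th percentile, and oxidative phosphorylation genes at 98.5 ± 0.18, with 31 of 32. The exceptions were Rps16, at 3.21, 5.09 and 5.95 and percentile 1.11, Rpl37 at percentile 25.5 and Cox7c at 26.6. Rps16 is a component of every ribosome, and its single probe set with 1 listed symbol was among the dimmest of the array. Uqcrb, of respiratory complex III, had a median of 15061 and Ndufa2, of complex I, one of 7650.4. Of the 31 respiration genes bright enough to be judged for spread, 3 (9.68%) had at least 2 times the SD of genes as bright, against 3.23% of all genes judged. Among ribosomal genes 1 of 18 (5.56%) did, Rpl13a, whose brightest probe set ran at 9078, 12588 and 20473 with an SD of 0.42, while its other 3 probe sets had SDs of 0.12 to 0.21.

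Long noncoding RNAs were as bright on their brightest probe sets, at 98.5 ± 0.40, with all 10 measured members at or above the 75th percentile. After Malat1 the brightest were Meg3, the maternally expressed RNA of the Dlk1-Dio3 region (12284, 16113 and 18128), and Snhg11 (11534, 12823 and 15826). Rian, transcribed from the same region as Meg3, had a median of 7689, and Mirg, also from it, one of 615. Miat (3638, 5281 and 7718) and Gas5 (5179, 8089.5 and 10154) had 2.12 and 2.03 times the SD of genes as bright, 2 of 10 members against 3.23% of all genes judged. Over all probe sets of each gene the list stood at 85.8, lower than the ribosomal and the respiration lists, both at 93.8.

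Genes of tissues outside the brain served as a reading of signals where little transcript is known to exist. Their list stood at 30.2 ± 3.69, and 7 of 18 measured members lay below the 25th percentile. Umod, of kidney, had a median of 33.5 and Cela1, a pancreatic elastase, one of 11.2. Yet 2 members were at or above the 75th percentile: Prm1, a sperm protamine, at 1287, 1844 and 2508, and Krt10, a keratin of skin, at 915, 1162 and 1813. The other 2 probe sets of Prm1 had medians of 71.8 and 33.4.

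The clock and heat shock genes are known for binding sites close to their starts. The promoters given by RefSeq on GRCm38.p6, 250 bases before to 50 bases after each start, were searched on both strands for the core site of the clock factors, the E-box CACGTG, and for the heat shock element, read as GAA, TTC and GAA with any 2 letters after the first and after the next. The E-box was found in 7.15% of 32851 promoters and the heat shock element in 0.603%. Windows of 30 bases are printed for Per1, Cry1 and Ciart, feedback genes of the clock, and for Hspe1, a mitochondrial chaperonin gene, because they show the letters in the genes described. They are 5' to 3' on the gene's strand with the match in capitals, at chr11:69098771-69098800 (+), chr10:85185097-85185126 (-), chr3:95882327-95882356 (-) and chr1:55088051-55088080 (+).
Per1: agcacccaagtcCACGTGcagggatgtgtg
Cry1: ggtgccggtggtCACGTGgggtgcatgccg
Ciart: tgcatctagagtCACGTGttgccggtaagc
Hspe1: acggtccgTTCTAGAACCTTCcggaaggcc

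Counted by gene, the E-box was in 8.09% and the heat shock element in 0.66% of 27025 genes. Of 16 clock genes with a promoter in the table, 5 held the E-box, and of 11 heat shock and stress genes, 3 held the heat shock element. Of these 3, Hspe1 and Hspd1 start on opposite strands beside each other and share the same stretch of letters. A match is a description of letters and not a bound site. The clock list stood at 81.2 ± 1.58, with 11 of 18 members at or above the 75th percentile, and at 71.7 over all probe sets. Rora and Cry2 were brightest, with medians of 2746 and 2491. Clock itself, of the activating pair, ran at 1157, 1249 and 1534, and Arntl, its partner, at 258, 331 and 459.6. Of the repressor genes, Per1 ran at 78.4, 262 and 571 (SD 0.69) and Per2 at 116, 212 and 275. Dbp, a strongly rhythmic output gene, ran at 606, 724 and 918, SD 0.20, close to its brightness class. Bhlhe40 was the only one of 14 clock genes bright enough to be judged whose SD was at least 2 times that of its class (449, 672 and 1159), a share of 7.14% against 3.23% of all genes judged. The labels give no time of day for the samples.

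Heat shock and stress genes stood at 95.8 ± 0.44, and at 79.5 over all probe sets. After Hspa8 the brightest were Hsp90aa1 (9828, 11272 and 13042) and Dnajb1, a co-chaperone (6818, 9082 and 12149). The inducible Hspa1a and Hspa1b were far lower, with medians of 513 and 423 and highest values of 655 and 811. Both genes are near-identical in sequence, so their probe sets can share transcripts.

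Immediate early genes, which neurons switch on within minutes of activity, differed between arrays. The list median was 64.3 ± 7.54, from 53.5 on array 4 to 74.9 on array 2, and 65.6 ± 7.33 without arrays 4 and 8. Its SD was the third largest of the 26 lists after the sex-linked and pituitary lists. The red blood cell and pineal lists were close, with SDs of 6.87 and 6.80. Without arrays 4 and 8 the SD of the pineal list was larger, at 7.74. Of 11 immediate early genes bright enough to be judged, 4 (36.4%) had at least 2 times the SD of genes as bright, against 3.23% of all 10554 such genes. These were Egr2, Egr1, Dusp1 and Fos. The share is a description, since the list was chosen with earlier results known.

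Egr2, a zinc finger factor, gave 1347, 983, 1113, 723, 311, 500.9, 996, 643 and 973 on arrays 1 to 9, and its other probe set was also highest on array 1 and lowest on array 5. Egr1 gave 3136, 2805, 2679.6, 1834, 1796, 1442, 2400.2, 3158 and 3101. Fos, part of the AP-1 factor, gave 792, 575, 266, 247, 236, 297, 362, 407 and 453. Arrays 4, 5 and 6 held the 3 lowest Egr1 values, while the 3 lowest Fos values were on arrays 3, 4 and 5, so the order of arrays was similar but not the same.

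Arc, a synaptic gene, ran from 41.2 on array 5 and 56.5 on array 6 to 423 on array 2. Npas4 ran from 17.2 on array 8 to 307 on array 1, an order unlike that of Egr1, which was highest on array 8. The dimmer members Fosb, Junb, Ier2 and Egr4 had medians of 111, 97.1, 78.1 and 46.3. In contrast, Nr4a2 (1357, 1526 and 1671) and Egr3 (2346, 2788 and 3658) were bright with SDs of 0.10 and 0.18, so the list did not vary as a whole.

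The cyclic AMP response element TGACGTCA, bound by CREB, was found in 1.79% of 32851 promoters, or in 2.03% of 27025 genes, and in 2 of the 14 immediate early genes with a promoter in the table. Both are shown, on the minus strand at chr17:26508597-26508626 and chr1:134079303-134079332, with the element in capitals.
Dusp1: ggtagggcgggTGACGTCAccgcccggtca
Btg2: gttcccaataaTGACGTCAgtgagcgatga

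Dusp1, a phosphatase that switches off MAP kinases, ran at 292, 545 and 949.7, 2.09 times the SD of genes as bright. Btg2, an antiproliferative gene, ran at 125, 198 and 329.8, SD 0.44. The absence of the element from the other windows says only that these letters were not there. The search left out chromosome 18 and covered 14 of the 18 measured immediate early genes, so the others were not read.

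Across all 45037 probe sets, the median SD between the 9 arrays was 0.341 on the log2 scale, a factor of 1.27, and 622 probe sets (1.38%) had an SD of at least 1. Spread fell with brightness. In 10 equal bins of probe sets from dim to bright the median SD was 0.50, 0.70, 0.63, 0.47, 0.39, 0.32, 0.28, 0.24, 0.21 and 0.18. Of the 622, only 27 had a mean log2 of at least 8. On this scale the 16 added to each intensity compresses low values.

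To set this dependence aside, the SD of each of the 10554 genes with a mean log2 of at least 8 was divided by the running median SD of genes as bright. In 341 genes (3.23%) the ratio was at least 2, and in 306 (2.90%) it was at most 1/2. Without arrays 4 and 8 the median SD was 0.333, 855 probe sets had an SD of at least 1 and 363 genes had a ratio of at least 2. The genes named next were chosen for their ratio, so their spreads are descriptions.

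**Figure D3:**
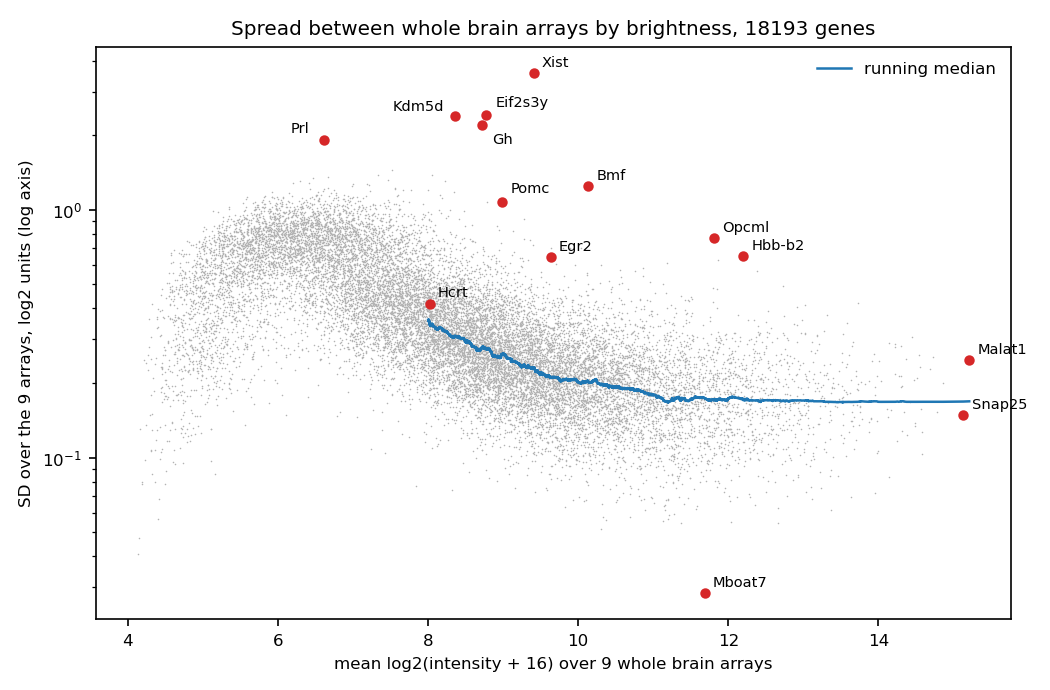
SD over the 9 whole brain arrays in log2 units (vertical, log axis) against mean log2(intensity + 16) (horizontal) for 18193 genes; grey points are genes, the blue line is the running median from a mean of 8 upward, and red points are named genes. Xist, Eif2s3y, Kdm5d and Gh stand farthest above the line, and Mboat7, SD 0.03, lies farthest below it.

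The widest gene by its ratio was Xist, followed by Eif2s3y, Gh and Kdm5d, of which 3 are sex-linked. Xist, the RNA that silences one X chromosome in female cells, gave 17.4, 7754, 7771, 170.0, 12.0, 7336, 8097, 563 and 68.6 on arrays 1 to 9, with an SD 15.51 times that of genes as bright. Arrays 2, 3, 6 and 7 were high and the other 5 were low, with array 8 highest among those 5. Another probe set of Xist gave 2319 to 3254 on arrays 2, 3, 6 and 7 and 70.0 to 271 on the other 5.

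Genes of the Y chromosome ran the opposite way. Eif2s3y, a translation factor subunit, gave 1240.2, 4.44, 156, 1846, 1916, 105, 101, 1662 and 1479.5. Kdm5d, a histone demethylase, gave 787, 13.0, 19.8, 1522, 1396, 93.8, 111, 1474 and 1188. In both, arrays 1, 4, 5, 8 and 9 were high and did not overlap with arrays 2, 3, 6 and 7. Uty, another demethylase gene, was between 281 and 512 on the same 5 arrays and between 31.3 and 81.1 on the other 4.

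The pattern was not shared by every sex-linked gene. Usp9y, a deubiquitinase, ran at 85.4, 130.3 and 248 with no such separation, and Tsix, the antisense partner of Xist, stayed between 8.62 and 30.6. Eif2s3x, the X-linked copy of Eif2s3y, had its 4 highest values, 4216, 4256, 4681 and 4783, on arrays 2, 3, 6 and 7, above a range of 3050.2 to 3698 on the other 5. Kdm6a, the X-linked copy of Uty, overlapped between them, at 391, 551 and 742 over the 9 arrays. The labels give no sex, and the arrays were not compared as groups on this basis.

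**Figure D4:**
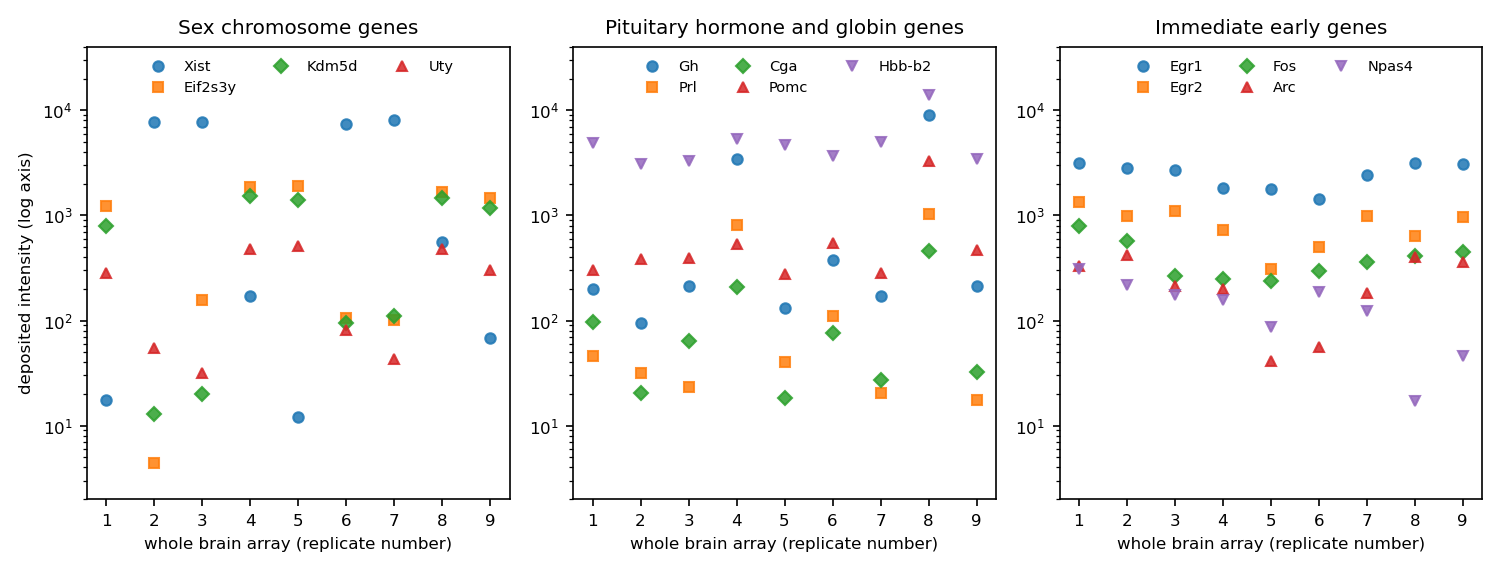
Deposited intensity (vertical, log axis) by whole brain array, replicates 1 to 9 (horizontal), for sex chromosome genes (left), pituitary hormone and beta globin genes (middle) and immediate early genes (right); each symbol is 1 array. Xist is at 7336 to 8097 on arrays 2, 3, 6 and 7, Gh reaches 3406 on array 4 and 8947 on array 8, and Arc is lowest on arrays 5 and 6.

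The pituitary hormone list was near the dim end on 7 arrays, and some of its genes were far higher on arrays 4 and 8. Gh, growth hormone, gave 201, 95.04, 213, 3406, 131, 379, 170.1, 8947 and 211 on arrays 1 to 9. All 4 probe sets of Gh were highest on array 8 and next on array 4. Prl, prolactin, was 804 on array 4 and 1027 on array 8, against 17.5 to 109 on the others. Cga, the alpha subunit shared by the glycoprotein hormones, was 207 and 461, against 18.5 to 97.0. Array 6 was next for Gh and Prl, at 379 and 109, and on 1 dim probe set of Gh it gave 170.2 against 12.7 to 27.4 on the 6 lowest arrays. On another dim probe set of Gh, array 6 gave 31.3, below arrays 3, 7 and 9 at 62.7, 34.2 and 42.4.

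Array 8 alone was high for Pomc, the precursor of corticotropin and beta-endorphin, made in the pituitary and in the arcuate nucleus: it was 3326 there and 276 to 546 on the other 8 arrays, and its other probe set was also highest on array 8 (809.6). On array 4 Pomc was 536, below 546 on array 6. Lhb was highest on array 8 at 145 and Fshb, the beta subunit of follicle-stimulating hormone, at 125, against 9.43 to 72.2. Tshb was not, at 248 within 146 to 283. On array 4, Lhb, Fshb and Tshb were 88.7, 56.7 and 209. The median percentile of the 7 pituitary genes was 69.4 on array 8, 42.2 on array 4, still below the median gene, and 22.7 to 27.1 on the other 7 arrays. Without arrays 4 and 8, the SD of Gh fell from 2.19 to 0.57, that of Pomc from 1.08 to 0.36, that of Prl from 1.92 to 0.65 and that of Cga from 1.28 to 0.69. The list median was then 25.4 ± 1.71, against 32.2 ± 15.1 over the 9 arrays.

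Hbb-b2 was also highest on array 8, at 13858 against 3116 to 5285 on the other arrays, and its SD fell from 0.65 to 0.29 without arrays 4 and 8. Alas2, the first enzyme of haem synthesis in red cells, was highest there at 578, whereas Hba-a2 was not, at 1688 within 1276 to 1840.1. Array 4, the second highest for Gh, had the second highest Hbb-b2 signal, 5285, close to 5008 on array 7. The median percentile of the red blood cell list was 59.2 on array 4, against 75.0 on array 8 and 70.6 on array 3. Its mean over the 9 arrays was 61.8. The part of attached pituitary or blood in these signals was not tested.

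Of the 20 widest genes, 14 belonged to no list. Of these, 4 had a single probe set (Slurp1, Krtap10-4, Ifna5 and Hoxb5), and 6 had another probe set with a mean log2 of at least 8, in none of which the SD reached 2 times that of probe sets as bright. Among dimmer ones, the other probe set of Efna2 was wide, SD 0.94, with another order of arrays. Bmf, a cell death factor, was 267 on array 7 and 235 on array 9 and between 945 and 2345 on the other 7, on a probe set that can match several transcripts. Its other probe sets, at means of 7.63 and 5.65 on the log2 scale, did not show this. Opcml, a cell adhesion protein of neurons, ran from 1747 on array 2, with arrays 5 and 8 next lowest, to 6469.8 on array 4, while its other probe set was highest on array 5. Nme1, a nucleoside diphosphate kinase, varied with an SD of 0.63 on one probe set and 0.16 on the other.

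Arrays 2, 5 and 8, those with the lowest median intensities, stood apart in several wide genes. Gopc, a Golgi protein, was 2046, 1983 and 1743 on these arrays and 581 to 1051 on the other 6. Efna2, a ligand of Eph receptors, was 302, 53.7 and 389 on them and 532 to 737 on the others. In 2 further genes only a part of the 3 was low. Slurp1 was 57.9 and 41.9 on arrays 2 and 8 but 452 on array 5, above its median of 395. Ifna5 was 41.3 and 49.2 on arrays 2 and 5 but at its median of 352 on array 8. Myl3 was 66.0, 206 and 77.8 on the 3 arrays, its 3 lowest values. Nol9 was 396 to 628 on arrays 1, 2, 5 and 8 and 1216 to 1376 on the other 5. Other orders of arrays were seen in Erdr1, lowest on array 4 at 1141, Hoxb5, lowest on array 6 at 32.8, Krtap10-4, lowest on array 9 at 47.0, Trpm7, highest on array 4 at 2268, and Irak1, a kinase of innate immune signalling, highest on array 1 at 1639.

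The 10 genes with the smallest ratio had roles from lipid metabolism to RNA processing. Mboat7, a lysophospholipid acyltransferase, stayed between 3197 and 3364, an SD of 0.03 and 0.16 times that of genes as bright. Ogt, which attaches N-acetylglucosamine to proteins, stayed between 3979.8 and 4418, and Cpt1c, a brain-specific carnitine acyltransferase, between 1186 and 1331. Pcbp1 and Pcf11 of RNA processing, Atxn1, the gene of spinocerebellar ataxia, Pabpc4, Aebp2, Txndc12 and Gpr75 completed the 10. Their SDs were 0.03 to 0.08.

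Principal components of the 10554 genes described what the arrays shared. The first held 30.3% of the variance, the second 15.5% and the third 11.5%. On the first, arrays 2, 5 and 8 scored 22.8, 20.5 and 15.9, array 1 scored 1.11 and the other 5 scored between -19.8 and -6.34. The 3 arrays at one end were those with the lowest median intensities and the most dim probe sets, 28.6%, 29.5% and 28.0% under 100 units. Genes with the strongest weights were Ifna5, Slurp1, Myl3, Nckap5l and Opcml at one end and Ypel3, Fkbp1b, Mtg1, Paqr4 and Gopc at the other. On the second component arrays 3 and 1 scored highest, at 19.4 and 15.6, with Xist, Egr2 and Apoe among the 10 strongest genes at that end, and Kdm5d, Eif2s3y and Gh at the other. Without arrays 4 and 8 the first component held 31.6% and the second 18.97%, arrays 2 and 5 scored 22.8 and 22.0 on the first, and arrays 1 and 3 again scored highest on the second, at 16.9 and 15.6. Xist was still among the 10 strongest genes at that end and Eif2s3y at the other, while Egr2 and Apoe were no longer among them, and Kdm5d and Gh, with a mean log2 under 8 on the 7 arrays, did not enter. The part of the overall signal level in the first component was not tested.

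**Figure D5:**
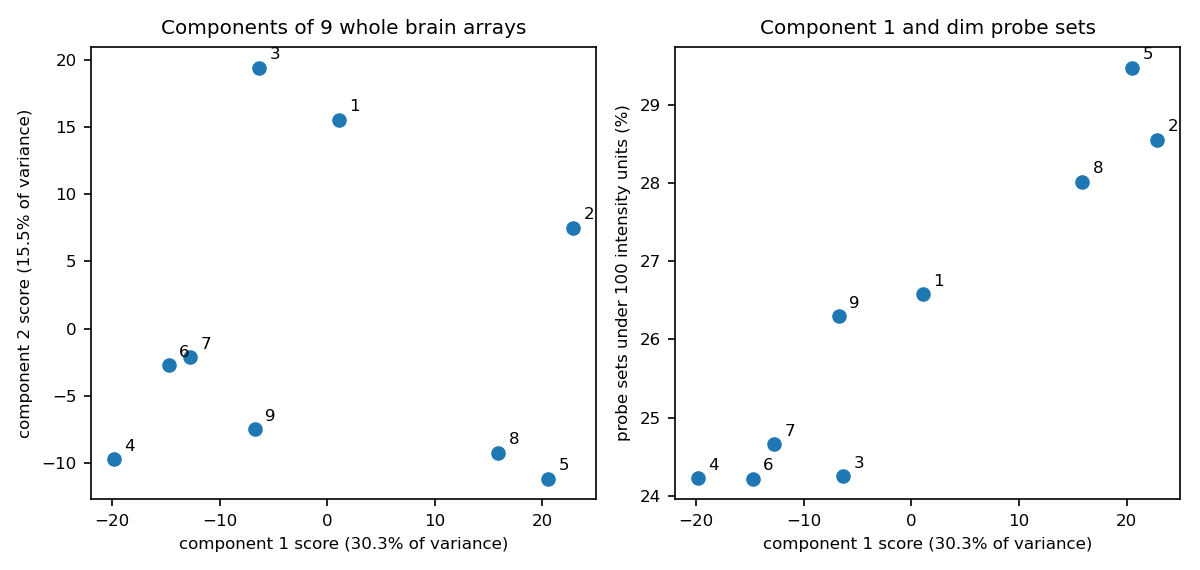
Scores of the 9 whole brain arrays, marked by replicate number, on the first component (horizontal) against the second component (left) and against the percentage of probe sets under 100 intensity units (right). Arrays 2, 5 and 8 lie apart on the right of both panels, with 28.0% to 29.5% dim probe sets against 24.2% to 26.6% on the other 6.

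Pairs of genes known to share a cell type, a region or a regulator were examined over the 9 arrays. Of 18 pairs, 15 had both genes measured and 13 were tested by exact permutation of all 362880 pairings, two-sided, with Benjamini-Hochberg adjustment over the 13. None passed an adjusted p of 0.05 by Pearson's r or Spearman's rho, and 1 had an unadjusted p under 0.05. This was Hspa1a with Hsp90aa1 (r = 0.80, exact p = 0.00913, adjusted p = 0.119), with rho = 0.55 (exact p = 0.133, adjusted p = 0.247), and r = 0.59 without the 2 arrays farthest in Hspa1a, 2 and 8. With each gene read as the mean over its probe sets, this pair passed (r = 0.93, exact permutation, adjusted p = 0.0029).

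Fos and Egr2 had r = 0.64 (exact p = 0.0605, adjusted p = 0.188) and rho = 0.55 (exact p = 0.133, adjusted p = 0.247), and r = 0.45 without arrays 1 and 2. Fos and Junb had r = -0.36 (exact p = 0.345, adjusted p = 0.566) and rho = -0.28 (exact p = 0.463, adjusted p = 0.547). Hcrt and Pmch, peptides of neighbouring neurons of the lateral hypothalamus, had r = -0.62 (exact p = 0.0722, adjusted p = 0.188) and rho = -0.62 (exact p = 0.0857, adjusted p = 0.247), which rested on arrays 4 and 5, since r was 0.01 without them. Avp and Oxt had r = -0.02 (exact p = 0.958, adjusted p = 0.958) and rho = -0.03 (exact p = 0.948, adjusted p = 0.948).

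Ttr and Kl, both of the choroid plexus, had r = -0.65 (exact p = 0.0530, adjusted p = 0.188) and rho = -0.68 (exact p = 0.0503, adjusted p = 0.247), and r = -0.93 without arrays 4 and 6. C1qa and C1qb, subunits of one complement protein, had r = -0.52 (exact p = 0.152, adjusted p = 0.329) and rho = -0.62 (exact p = 0.0857, adjusted p = 0.247), and r = -0.80 without arrays 4 and 7. The 6 other tested pairs had Pearson's r between -0.64 and 0.35, with adjusted p from 0.188 to 0.708 over exact permutations.

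For Gh the arrays fell into separate sets, so r was taken over the 7 arrays other than 4 and 8, apart from the 13 pairs and chosen after the values were seen. It was 0.53 with Prl (exact p = 0.218, rho = 0.14, exact p = 0.783) and 0.61 with Pomc (exact p = 0.137, rho = 0.75, exact p = 0.0663).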

How the data were processed

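The deposited table gave, for each of the 9 whole brain arrays, 1 intensity per probe set on a linear scale, made by the authors with MAS5, according to the submitters' processing notes; its version, background correction and other settings are not given in the sources used here. From the deposited values, the mean of each array without its lowest and highest 2% was near 500. No detection calls were used. The 64 array controls were left out of 45101 probe sets. The log2 of the deposited intensity plus 16 was used, which compresses low values. Of 45037 probe sets, 34945 had 1 gene symbol, 932 several and 9160 none. Those with 1 symbol stood for 18193 genes, each read from its brightest probe set by mean log2. Names of 34741 could be checked through Entrez identifiers in a RefSeq table of GRCm38.p6 used for names, and 0 were renamed. Promoters of RefSeq on GRCm38.p6 came from the same source.

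Spread was the SD over the 9 arrays, and for genes with a mean log2 of at least 8 it was divided by the running median SD of 501 genes as bright. Python 3.11.15 with numpy 2.4.6, pandas 2.3.3, scipy 1.17.1 and statsmodels 0.14.6 was used, and the spread step was tested on simulated data. Gene pairs were tested by exact permutation. Named genes were the 30 brightest, the 20 with the largest and the 10 with the smallest ratio of SD, passing over unnamed clones, up to 4 brightest, 2 dimmest and 2 widest members of each list, all members of the hypothalamic, pituitary, sex-linked, immediate early and clock lists, genes of the pairs, Hcrt, Pabpc1, Trib2 and the 5 genes most like Hcrt. The members and lists were chosen with earlier results of these data known. Gh pairs were kept out of the 13 tested pairs after their values were seen. Alternatives were 1 or 64 in place of 16, normalization by quantiles, centring on the median, brightness filters, other readings of a gene's probe sets and leaving out arrays. The number of arrays limits the precision.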

Additional observations from a re-analysis of the deposited data

Results flagged for a closer look

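Of 296 results examined, 270 genes and 26 lists, 16 (5.41%) had 1 array far from the other 8, meaning that its gap to the nearest other array, as a share of the whole range, passed Dixon's 95% limit for 9 values. Chance finds about 1 group in 20 by this measure, and the number as a whole is near that share. Some of the 270 genes were named for a wide or narrow spread on these same arrays. The share is therefore no measure of chance here. Of the 16, 6 fell on array 8 and 3 on array 1.

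On array 8, Pomc was 3326 (276 to 546 on the other arrays), Hbb-b2 was 13858 (3116 to 5285) and the median percentile of the pituitary hormone list was 69.4 (22.7 to 42.2). On the same array Pde10a was low at 2259 (2738 to 3220), Pdyn at 49.4 (158 to 222) and Ifit1, an interferon-induced gene, at 8.62 (90.1 to 259).

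On array 1, Mog was low at 317 (511 to 782) and Tek at 133 (231 to 376), while Col3a1 was high at 219 (31.5 to 76.8). Col1a2, another collagen, was high on array 3 at 858 (637 to 737) and not on array 1.

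Low values on other arrays were Efna2 on array 5 at 53.7 (302 to 737), Rps16 on array 5 at 3.21 (4.83 to 5.95), Sst on array 9 at 689.8 (1053 to 1589), Fosl2, an AP-1 family gene, on array 6 at 421 (708 to 1161), Th on array 4 at 102 (179 to 299.7) and the microglial list on array 7 at percentile 49.3 (58.4 to 65.9). Pdyn, Ifit1, Th, Col3a1 and Rps16 had mean log2 values under 8.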

How the results depend on the processing

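No paired analysis was possible because the 9 whole brain arrays form 1 group and nothing was compared between groups. The count of lists above the median gene (19 of 26) was 19 with the mean over probe sets, 18 with plain _at probe sets only, 14 among probe sets with a mean log2 of at least 7, and 18 to 19 without each array in turn. The order of lists correlated with the reported one at Spearman's rho 0.962, 0.948 and 0.977 under the first 3. The median SD of 0.341 was 0.381 with a pseudocount of 1, 0.271 with 64, 0.330 after quantile normalization and 0.281 at a mean log2 of at least 7. The count of 622 probe sets with an SD of at least 1 was 5509 with a pseudocount of 1, 34 with 64 and 179 at a mean log2 of at least 7. The count of 341 wide genes was 259 after median centring and 376 after quantile normalization. At a mean log2 of at least 9 it was 203, where 6797 genes were judged. Fewer probe sets under the filters, and the pseudocount's weight on low values, enter these counts by construction. Without each array in turn these 3 values ran from 0.333 to 0.343, from 698 to 830 and from 325 to 373. No pair passed adjusted p 0.05 without any 1 array (0 to 0), but 1 did with the mean over probe sets, Hspa1a with Hsp90aa1 (r = 0.93, exact permutation, adjusted p = 0.0029). Signs turned for Ttr with Sostdc1 (r = 0.063 after quantile normalization, 0.016 after median centring and 0.40 with the mean over probe sets), Dcn with Col1a2 (0.10 after median centring, 0.52 with the mean) and Pcp2 with Cbln3 (-0.091 with the mean). Without each array in turn, r of Avp with Oxt ran from -0.29 to 0.18, of Th with Slc6a3 from -0.12 to 0.49 and of Slc17a7 with Nrgn from -0.25 to 0.53. The causes were not tested. The first component held 25.3% to 30.5% of the variance under its 3 alternatives. Leaving out arrays 4 and 8 together was chosen after seeing the data; 19 lists then lay above the median gene. With 9 arrays and no detection calls, signals near the dim end cannot be told from background.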

Other observations

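Probe sets of 1 gene offered repeat readings within each array. For Uty, all 4 probe sets were listed, with mean percentiles of 42.7, 28.3, 27.5 and 19.7; the second of these ran at 5.97 to 163 with arrays 3, 6 and 7 at 105, 95.1 and 129, much closer to the other arrays than on the brightest probe set. For Gad1, the brighter probe set had an SD of 0.10 and the dimmer one 0.31, with array 9 highest on the first and lowest on the second. For Trib2, array 3 was lowest on both brighter probe sets (455 and 402), while array 1 was highest on one and array 9 on the other. For Hspa1b, the highest array was 1 on the brightest probe set (811), 6 on the next (224) and 9 on the dimmest (185). These are values without a test.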
